A study of Homo sapiens with 8 samples.

Results

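The genes described here were the repressors of the MYC/MAX network, MXD1, MXI1, MXD3, MXD4, MNT and MGA, which counteract MYC. They were chosen by name, 6 of 20033 protein-coding genes, and every RFX7 peak within 10 kb of their gene bodies was collected. A single peak met this rule. It lay over the start of MXD4 in the Nutlin-3a peak list, 1 of 1234 peaks there, and 0 of 556 peaks in the DMSO list lay near any of the 6 genes. ChIP-seq for RFX7 was done in RPE-1, an established human line of retinal pigment epithelium immortalised with telomerase. For 24 h the cells were given either 10 µM Nutlin-3a, an MDM2 blocker that stabilises p53, or DMSO as solvent control. The 8 samples form 4 groups of 2: RFX7 ChIP with Nutlin-3a, RFX7 ChIP with DMSO, and input chromatin for both. The deposited values were 1 peak list per treatment, so no value has a replicate error, read depth is unknown, and the lists allow no test between treatments.

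Proteins of this group carry a basic helix-loop-helix leucine zipper and pair with MAX, the partner that MYC itself needs to bind DNA. MXD1, MXI1, MXD3, MXD4 and MNT bind E-boxes with MAX and bring in the SIN3 corepressor with histone deacetylases, so that genes MYC would activate are repressed. MXD proteins typically rise as cells leave the cell cycle and differentiate, MNT is present in cycling and resting cells, and MGA is a much larger protein that also has a T-box domain and belongs to a Polycomb complex, PRC1.6. RFX7 is a winged-helix transcription factor of the RFX family, whose members recognise X-box motifs.

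The sequence under the MXD4 peak that could be read is its promoter, shown here because it lies wholly inside the peak and holds an X-box half-site core beside an E-box. The promoter of MNT is shown for comparison as the only other promoter of the group with both motifs, though its GTTGC match falls after the start and so outside the stretch printed, and it had no peak. Sequences are from RefSeq on GRCh38.p14, 5′ to 3′ along the gene, and give the 250 bases before the annotated start: chr4:2262110-2262359, minus strand, for MXD4 and chr17:2401061-2401310, minus strand, for MNT. Capitals mark CACGTG, the canonical E-box, and GTTGC, the core of the X-box half-site.
MXD4: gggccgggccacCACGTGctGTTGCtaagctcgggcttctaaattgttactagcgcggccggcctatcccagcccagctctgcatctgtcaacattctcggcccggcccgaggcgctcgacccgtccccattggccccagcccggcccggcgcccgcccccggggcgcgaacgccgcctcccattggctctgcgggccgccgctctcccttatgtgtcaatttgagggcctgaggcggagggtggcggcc
MNT: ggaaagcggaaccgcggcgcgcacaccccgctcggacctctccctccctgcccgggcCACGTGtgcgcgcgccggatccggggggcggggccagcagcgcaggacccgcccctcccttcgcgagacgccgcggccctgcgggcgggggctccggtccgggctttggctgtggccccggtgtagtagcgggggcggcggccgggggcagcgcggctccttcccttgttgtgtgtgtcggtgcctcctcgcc

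RFX7 was called at MXD4 after Nutlin-3a treatment. MXD4 lies on the minus strand of chromosome 4 (2247432 to 2262109), and the peak at chr4:2261519-2262789 was 1271 bp wide with a fold enrichment of 3.67 and a −log10 p of 84.4. Fold enrichment and −log10 p are the peak caller's own values, and what the enrichment is relative to is not given in the sources used here. Of the 1271 bp, 591 lay inside the gene and 680 upstream of its start. The deposited summit was at 2261594, 515 bp inside the gene and within the first 5.90% of the peak as read along the reference, while the middle of the peak was 45 bp upstream of the start. MXD4 was the only annotated gene that the peak overlapped. The bodies of ZFYVE28, POLN and HAUS3 were 6.81, 19.4 and 19.4 kb away, and the closest annotated start of ZFYVE28 was 102 kb away, so the MXD4 start was the only one among these genes inside the peak.

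**Figure D1:**
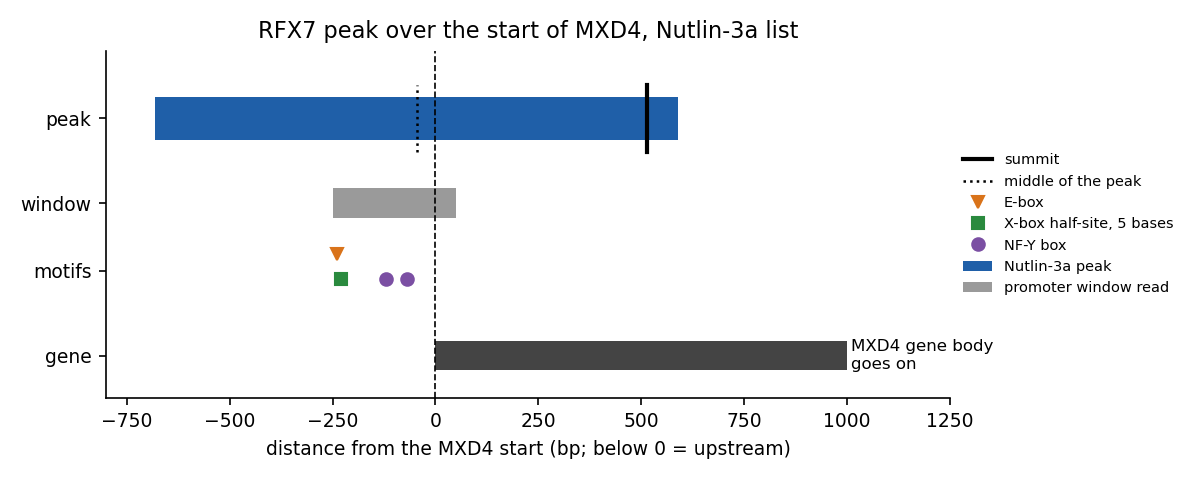
Map of the MXD4 start with distance from it in bp on the x axis (below 0 is upstream). The blue bar is the Nutlin-3a peak with its deposited summit (solid line, 515 bp inside the gene) and middle (dotted line, 45 bp upstream), the grey bar the promoter window that was read, and the symbols the first bases of motif matches in it. The peak spans the start and the whole window.

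This peak stood alone on its part of the chromosome. No other listed region of either treatment lay within 500 kb. It was the third of 110 Nutlin-3a peaks along chromosome 4, with the previous peak 0.914 Mb and the next 10.7 Mb away. The DMSO list held 63 peaks on chromosome 4, of which the nearest was 46.8 Mb from the MXD4 peak. That DMSO peak was 50 bp wide and lay in a cluster, with at least 5 other regions within 500 kb. Many of the 110 Nutlin-3a peaks were clustered by the same rule, so they were not spread evenly along the chromosome. That MXD4 is missing from the DMSO list means that no peak was called, since peak lists carry no signal for other places. The lack of a DMSO peak was not particular to MXD4. Of the 101 Nutlin-3a peaks with summits at most 1000 bp from a protein-coding gene boundary, 1 overlapped a DMSO peak. Over the whole Nutlin-3a list overlap was more frequent, since many clustered peaks overlapped a DMSO peak.

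Within the Nutlin-3a list the MXD4 peak was broad, of high −log10 p and of moderate fold enrichment. At which point of a peak the fold enrichment was read is not given in the sources used here, and the deposited summit lay near the edge of this peak, so its ranks by that measure are less certain than the others. It ranked second of 1234 by width, against a list median of 161 bp. By −log10 p it ranked 176, against a median of 23.8, and by fold enrichment 374, against a median of 2.77. Its place among the 101 Nutlin-3a peaks whose summits were at most 1000 bp from a boundary (either end) of a protein-coding gene was less even. There it ranked second by width and 18 by −log10 p, but 89 by fold enrichment, tied with the peak at 88. The fold enrichments of these 101 peaks ran from 2.71 to 23.8 with a median of 5.08, so MXD4 was below the middle of the range by that measure and above it by −log10 p, whose median was 27.2.

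**Figure D2:**
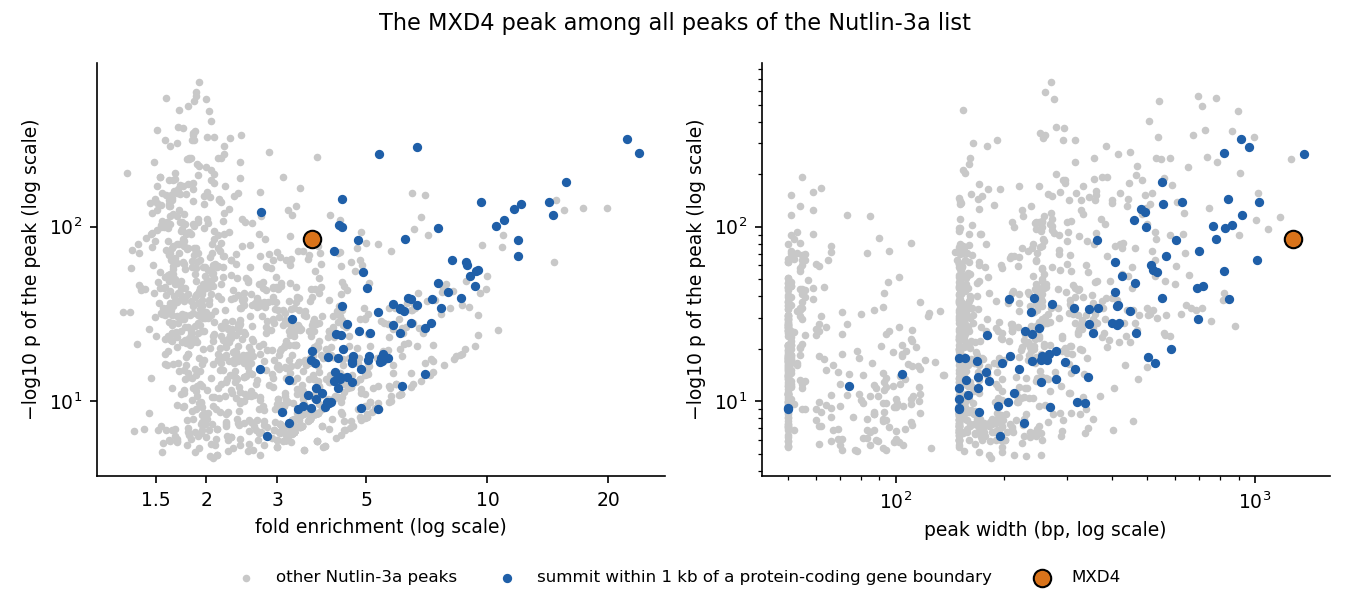
All 1234 Nutlin-3a peaks by −log10 p (y axis, log scale) against fold enrichment (left, log scale) and width in bp (right, log scale). Blue points are the peaks with a summit within 1 kb of a protein-coding gene boundary and the orange point is MXD4, which at 3.67-fold and −log10 p 84.4 lies left of most blue points of like height, and at 1271 bp lies near the right edge of the widths.

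Which boundary peaks were most like that of MXD4 depended on the measure. By fold enrichment the neighbours in rank were TOB1 (3.75-fold) and CAT (3.72-fold) just above and LOC124904276 (3.67-fold) tied with MXD4. Just below were KIAA0753 (3.65-fold), PLCXD2 (3.64-fold) and TSC22D1 (3.57-fold). These 6 peaks were 150 to 528 bp wide and had −log10 p values of 9.19 to 19.3, far below the 84.4 of MXD4. By −log10 p the neighbours included CNOT1 (101), GTF2I (99.8) and TCAIM (98.4) above, and JUNB (84.4) and RAB40B (83.4) below. Their fold enrichments, 4.35 to 11.9, were all higher than that of MXD4, and their widths, 364 to 825 bp, all smaller. Of the Nutlin-3a peaks, 31 others equalled or exceeded MXD4 by both measures, and 1 of these 31, at PNRC1, overlapped a DMSO peak. Among the 101 boundary peaks the number with such an overlap was also 1, again PNRC1, so overlap was rare in both of these sets. It was not rare among peaks of high −log10 p over the whole Nutlin-3a list. Many clustered peaks there exceeded MXD4 by −log10 p, but not by fold enrichment, and overlapped a DMSO peak.

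The other MXD genes had no RFX7 peak within 10 kb in either list. MXD1 (chromosome 2, 69915109 to 69942945, plus strand), first described as the MAX-binding partner MAD, had its nearest Nutlin-3a peak 10.3 Mb away (chr2:59627016-59627189, 174 bp, 3.15-fold, −log10 p 6.01) and its nearest DMSO peak 19.8 Mb away. At MXI1 (chromosome 10, 110207605 to 110287365, plus strand) the closest Nutlin-3a peak was 584 kb off, at chr10:110871596-110872610. That peak was 1015 bp wide, 8.17-fold enriched with a −log10 p of 64.1, and its summit was 3 bp inside a boundary of PDCD4, a gene for an inhibitor of translation. The closest DMSO peak to MXI1 was 15.6 Mb off. For MXD3 (chromosome 5, 177305499 to 177312752, minus strand), the MXD gene best known from cells in S phase, the distances were 2.28 Mb (chr5:175025346-175025495, 150 bp, 3.65-fold, −log10 p 8.18) and 127 Mb.

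MNT and MGA had none either. For MNT (chromosome 17, 2384073 to 2401060, minus strand) the nearest Nutlin-3a peak was 755 kb away at chr17:1628709-1629030, 322 bp wide, 5.04-fold enriched with a −log10 p of 24.3, and its summit lay inside SLC43A2, an amino acid transporter gene, 1121 bp from the boundary. The nearest DMSO peak was 19.5 Mb away. For MGA (chromosome 15, 41621224 to 41769940, plus strand), the longest gene of the group at 148717 bp, the nearest Nutlin-3a peak was 10.9 Mb away (chr15:52651864-52652296, 433 bp, 6.54-fold, −log10 p 28.0) and the nearest DMSO peak 21.8 Mb. These distant peaks are given for position only and were not assigned to the genes. The nearest DMSO peaks of MXD1, MXD3, MNT and MGA lay in clusters of peaks, as did that of MXD4, and that of MXI1 did not.

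In all, 1 of 6 genes had a Nutlin-3a peak within 10 kb, and 270 of the 20033 protein-coding genes did (1.35%). At that share a group of 6 would hold 0.0809 genes with a peak. The group was picked with the MXD4 peak already known, so the excess is a description of MXD4 and says nothing of the group. In the DMSO list the counts were 0 of 6 and 13 of 20033 (0.0649%), a background too low for 0 of 6 to be informative. The median distance from gene body to nearest Nutlin-3a peak was 1.52 Mb over the 6 genes and 2.53 Mb over all protein-coding genes. For DMSO peaks these medians were 20.8 and 21.3 Mb. Apart from MXD4, the genes lay on both sides of the Nutlin-3a median, with MXI1, MNT and MXD3 nearer and MXD1 and MGA farther.

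None of 26 other MAX network genes, a chosen list and not the whole network, had a peak within 10 kb. The list of 26 genes comprised the partner proteins MAX and MLX, the activators MYC, MYCN, MYCL, MLXIP and MLXIPL, 9 genes of the SIN3 and histone deacetylase corepressor and 10 genes of the PRC1.6 complex. In the Nutlin-3a list 0 of 26 had one, where the background share of 1.35% would give 0.350 genes, and in the DMSO list 0 of 26. A count of 0 is therefore near the background and not a result about these genes. Their nearest Nutlin-3a peaks were between 216 kb (L3MBTL2, a PRC1.6 subunit) and 15.4 Mb (RNF2, the PRC1 ubiquitin ligase) away, with a median of 2.54 Mb. For MAX, the partner shared by all 6 repressors, it was 4.05 Mb, and for MYC, the activator they oppose, 8.92 Mb. For SIN3A and SIN3B, the scaffolds that MXD proteins and MNT bind, it was 0.771 and 1.28 Mb.

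**Figure D3:**
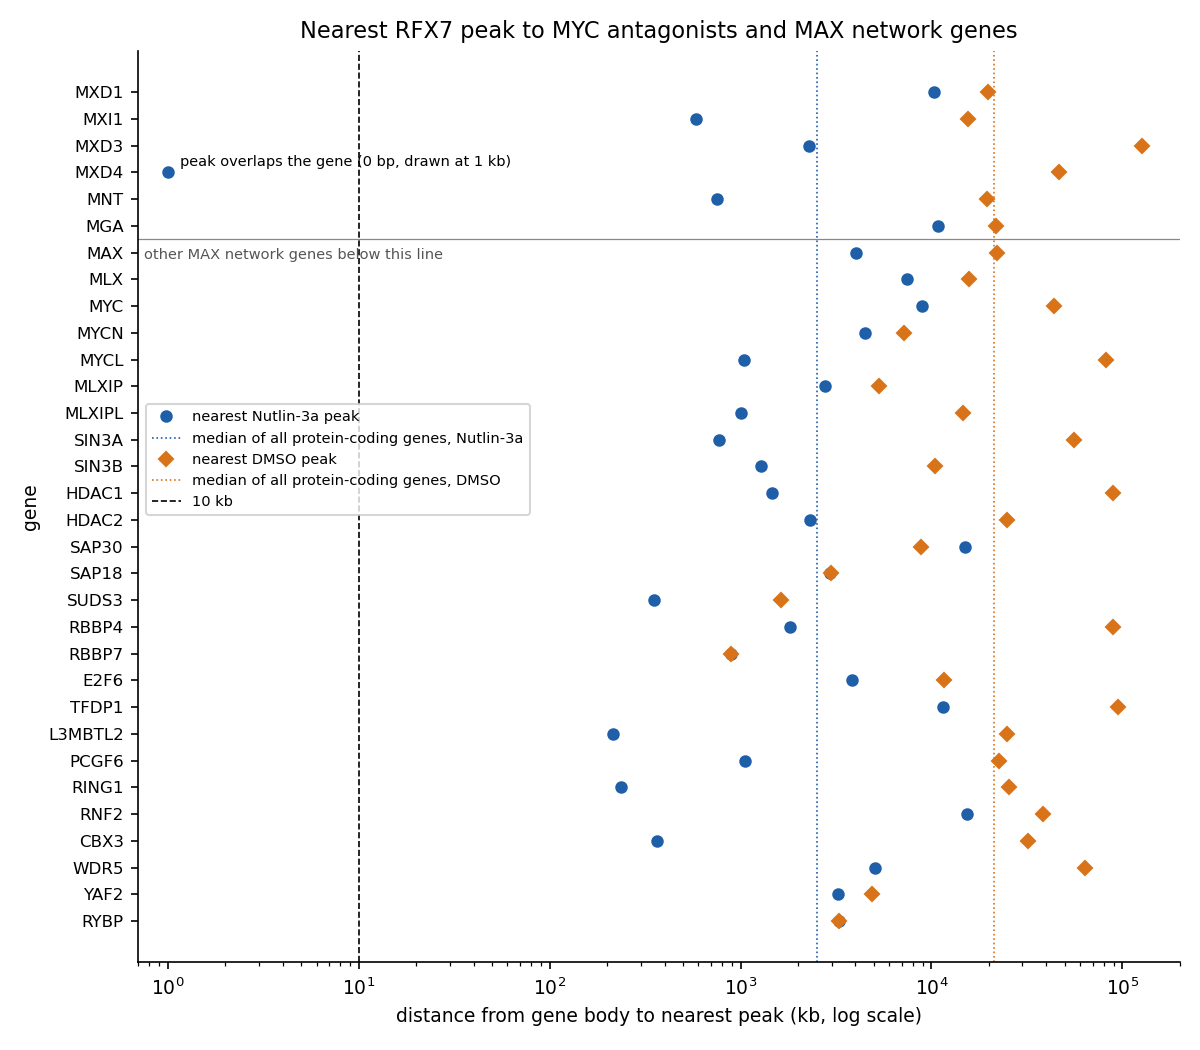
Distance from the gene body to the nearest peak in kb (x axis, log scale) for the 6 MYC antagonists (above the line) and 26 other MAX network genes (below it), with Nutlin-3a peaks as circles and DMSO peaks as diamonds. The dashed line is 10 kb and the dotted lines are the medians over all protein-coding genes. MXD4, drawn at 1 kb because its peak overlaps the gene, is the only gene left of the dashed line.

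Promoter letters were compared across the group. RefSeq gave 10 promoter windows of 300 bases, from 250 before to 50 after an annotated start, for the 6 genes: 3 each for MXI1 and MGA and 1 each for the others. Exact matches were searched on both strands for the half-site GTTGCC, its shorter core GTTGC (every GTTGCC match is also a GTTGC match), CACGTG and CCAAT, the element bound by NF-Y. The full palindromic X-box, made of GTTGCC, the bases AT and the reverse complement of GTTGCC, was searched as well. Neither it nor GTTGCC was found in any of the 10 windows. Over all 22075 protein-coding promoter windows the palindrome was found in 6 and GTTGCC in 12.6%. Of the 107 windows that overlapped a Nutlin-3a peak, 0 held the palindrome and 26.2% held GTTGCC, which the MXD4 window lacked.

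MXD4 held GTTGC once, starting 230 bases before the gene start, and CACGTG once, starting 238 bases before it, so that 2 bases separated the motifs in the MXD4 sequence above. Both lay inside the peak, 185 and 193 bp from its middle and 745 and 753 bp from the deposited summit. CCAAT matched at 2 places, both on the strand opposite to the gene, starting 121 and 68 bases before the gene start. GTTGC was found in 33.8% of all windows, CACGTG in 8.32%, CCAAT in 34.7%, and GTTGC together with CACGTG in 2.73%. Of the 107 windows that overlapped a Nutlin-3a peak, that of MXD4 among them, 65.4% held GTTGC, 67.3% CCAAT, 12.1% CACGTG and 8.41% both GTTGC and CACGTG. The median GC content was 64.7% in those 107 windows and 62.3% in all windows, and it was 72.3% in the MXD4 window.

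GTTGC was no mark of MXD4 within the group. It also occurred in windows of MXI1, MXD3, MNT and MGA, none of which had a peak, and of the 6 genes only MXD1 lacked it. By window the count was 5 of 10, beside 33.8% of all windows. In MNT the match began at base 6 after the start and the E-box began 193 bases before the start, so the motifs stood much farther apart than in MXD4. The match with 10 bases on either side is shown for the genes where it lay upstream of the start, to let the surroundings be compared. Capitals mark the match, which in MXI1 is on the opposite strand and reads GCAAC. The stretches are chr4:2262325-2262349 (minus strand), chr5:177312935-177312959 (minus), chr10:110225754-110225778 (plus) and chr15:41660209-41660233 (plus), in the order of the lines.
MXD4: accacgtgctGTTGCtaagctcggg
MXD3: ccgcggtctgGTTGCactggccttt
MXI1: gcaaagtcccGCAACttcttagtct
MGA: gcttttctggGTTGCagggacccgg

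A match says only that these letters are present. The windows cover 300 of the 1271 bp of the MXD4 peak (23.6%) and do not reach its deposited summit, and the letters of the rest of the peak were not used here.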

How the data were processed

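The data were 2 deposited peak lists in narrowPeak layout, 1 for RFX7 ChIP with Nutlin-3a and 1 with DMSO, analysed for 6 genes. The deposited fold enrichment (column 7), −log10 p (column 8) and −log10 q (column 9) were used as given. The submitters' processing notes name the build hg38 and the tools bcl2fastq 2.20.0.422, Trimmomatic 0.39, FastQC 0.11.9, cutadapt 2.10, SAMtools 1.10, Picard, MACS2 2.2.7.1 and bedtools 2.29.2, with no role or order. The aligner, the peak settings, the control and how the 2 replicates were combined are not given in the sources used here.

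Starts were made 1-based and distances computed in Python 3.11.15 (numpy 2.4.6, pandas 2.3.3), to protein-coding genes of RefSeq GRCh38.p14. Gene starts and strands came from RefSeq promoter windows, and exons were not annotated. Motifs were searched in these windows only, and the planned search in whole peaks was not run. The distance and motif code was tested on made-up intervals and sequences. Peak values were compared within a list only. No p-value was computed, since a list has no replicates. Members and lists were chosen with earlier results of these data known. Named were all 6 genes, every peak within 10 kb of them, their nearest peaks, and the 3 boundary peaks above and below in rank by both measures, of which 1 is not reported here. Other names (PNRC1, L3MBTL2, RNF2, MAX, MYC, SIN3A, SIN3B and the broad peaks) were chosen after their values were seen. Alternatives changed the distance, the point of the peak used and the peaks kept.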

Additional observations from a re-analysis of the deposited data

How the results depend on the processing

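Over 11 alternatives for either list, the number of the 6 genes with a peak stayed at 1 (MXD4) for Nutlin-3a and at 0 for DMSO, and the number of the 26 network genes at 0 for both. Meanwhile the share of protein-coding genes with a peak ran from 0.829% to 4.49% for Nutlin-3a and from 0.0316% to 0.319% for DMSO. These alternatives were the gene body alone, 1, 5, 50 and 100 kb, the summit or the middle alone, −log10 q of at least 5, fold enrichment at or above the list median, 10 kb from an annotated start (which 24 of the 26 network genes had in the table used), and peaks with fewer than 5 other regions within 500 kb. None of them could change the counts. Apart from MXD4, the nearest Nutlin-3a peak was 584 kb from the 6 genes (MXI1) and 216 kb from the network genes (L3MBTL2). The nearest DMSO peak was 15.6 Mb from the 6 genes (MXI1) and 886 kb from the network genes (RBBP7). The MXD4 peak overlapped its start, had a −log10 q of 79.1 and passed every filter. Widening by 1 kb gave no DMSO overlap at MXD4 and could not, since the nearest DMSO peak was 46.8 Mb away. The rank of its peak was 374 by fold enrichment and 176 by −log10 p, and its distance to the gene boundary 515 bp from the summit and 45 bp from the middle. The cause was not tested. No paired analysis was possible because the lists hold no value per replicate, and for the same reason no replicate was left out. Unknown depth limits what an absent peak shows.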

Other observations

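MXD4 belonged to the broadest peaks of the Nutlin-3a list. Of 1234 peaks 9 were at least 1000 bp wide, and 4 of these had their summit at most 1000 bp from an end of a protein-coding gene: PNRC1 (1367 bp, 5.37-fold), MXD4 (1271 bp, 3.67-fold), DDIT4 (1025 bp, 14.2-fold) and PDCD4 (1015 bp, 8.17-fold). These genes code for a nuclear receptor coactivator, a MYC antagonist, an inhibitor of mTOR signalling and an inhibitor of translation. MXD4 had the lowest deposited fold enrichment of the 4, and the point of a peak at which it was read is not given in the sources used here. In 5 of the 9 peaks the deposited summit lay in the first 10% of the peak as read along the reference, MXD4 among them.

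The fold enrichment of MXD4 was identical to all deposited digits with that of 1 other peak, at LOC124904276 on chromosome 1 (3.67-fold). That peak was 279 bp wide with a −log10 p of 19.3, against 1271 bp and 84.4 at MXD4, so peaks of one fold enrichment differed widely in the other columns.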
